A study of Homo sapiens with 12 samples.

Results

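Vesicles from macrophages of the M0 state were compared with vehicle in cells of MV3, a human melanoma line in long-established culture. The comparison uses the 3 M0 EV libraries and the 3 Ctrl libraries, chosen by their labels, of 12 libraries in all. The Ctrl cells received PBS, and the M0 EV cells received 1e10 particles per well of extracellular vesicles (EVs) made by M0 macrophages of THP-1, a line of human monocytic leukaemia cells. In both groups the cells grew in 12-well plates, had been kept for 3 h in RPMI medium with 1% serum freed of vesicles, and were collected 24 h after the addition. The other 6 libraries, 3 per group, come from cells given the same particle number of vesicles from THP-1 macrophages of an M1 or an M2 state (M1 EV, M2 EV). These serve for tests of the difference from M0 EV and for values set beside it. Polarization lasted 48 h per the series' design text, and which agents were used is not in the labels. A single line of melanoma cells and a single line of donor cells stand for their cell types here, and no other dose or time was analysed.

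Extracellular vesicles are membrane particles that cells release and that carry proteins, lipids and RNA, and cells that take them up route much of the cargo through endosomes and lysosomes. Macrophages that have not been polarized are called M0, those polarized by inflammatory signals M1, and those polarized by signals such as interleukin 4 M2. Inflammatory mediators act on tumour cells largely through NF-kB, a transcription factor that turns on chemokines, adhesion molecules and its own inhibitors.

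Melanoma cells given M0 vesicles differed little from cells given PBS. Of 13129 tested genes, 2 were called (0.0152%) at an adjusted p below 0.05 by edgeR's quasi-likelihood test with Benjamini-Hochberg adjustment. The mitochondrial 12S ribosomal RNA MT-RNR1 was higher (0.00762% of genes called higher), and the netrin receptor gene UNC5B was lower (0.00762% called lower). An unadjusted p below 0.05 was reached by 672 genes (5.12%), of which 372 were higher (2.83%) and 300 lower (2.29%). The 3 M0 EV libraries lay wholly above or wholly below the 3 Ctrl libraries in 1335 genes (10.2%), 658 of them higher (5.01%) and 677 lower (5.16%). The median log2 fold change of all tested genes was 0.0032. The labels number the replicates without saying that they were separate cultures or vesicle preparations, so each p-value speaks only to the spread among these libraries, which may be technical.

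Gene totals were 9699399 to 11255404 counts in the Ctrl libraries and 10093695 to 12301112 in the M0 EV libraries. Levels are in counts-per-million units (CPM) scaled by TMM, a factor that aligns libraries on the bulk of their genes. M0 EV replicates 2 and 3 had a chi-square of 1.03 per degree of freedom between them, where 1 is counting error alone. Ctrl pairs stood at 1.23 to 1.47, and M0 EV replicate 1 stood at 2 and 2.32 against the others of its group. Calls given below without M0 EV replicate 1 thus rest on a pair with little spread, and their p-values may be too small. The first principal component of these 6 libraries held 22.8% of the variance and did not separate the groups, with Ctrl at -13.6 to 2.87 and M0 EV at 0.982 to 8.96. The labelled cell type was checked against markers. The summed level of 16 melanoma markers was 8518 to 8737 CPM in Ctrl and 8601 to 8784 CPM in M0 EV, most of it from VIM (5063 and 5122 CPM) and AXL (1310 and 1326 CPM), which other mesenchymal cells also express. That of 27 melanocytic differentiation genes was 449.3 to 476.8 and 464.1 to 466.3 CPM. Its highest members were MLPH (128.1 and 128 CPM), CDK2 (74.4 and 75.3 CPM) and MC1R (71.5 and 76 CPM). By contrast PMEL stood at 0.13 and 0.203 CPM, and the melanocyte markers SOX10, S100B, TYR and KIT had no count in the 6 libraries. Of 44 macrophage and monocyte markers, 18 had no count in the 6 libraries, among them CD163, CD86, TYROBP and C1QA. Their summed level was 60.5 to 69.5 CPM in Ctrl and 65.3 to 66.7 CPM in M0 EV, most of it from CD68 (56.7 CPM in Ctrl and 57.9 CPM in M0 EV). Lymphocyte markers (10 of 15 at 0) summed to 2.04 to 2.4 and 1.29 to 2.52 CPM, and fibroblast and endothelial markers (3 of 15 at 0) to 69.2 to 71.1 and 63.7 to 68.6 CPM. A count of 0 over the 3 M0 EV libraries allows up to 3 counts, or 0.0888 CPM (0.0971 CPM in Ctrl), which covers counting error only.

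UNC5B encodes a receptor of the guidance cue netrin-1 and belongs to the dependence receptors, which can signal for cell death when their ligand is absent. Its transcript (NM_170744) comes from chromosome 10, 71212570 to 71302864 in RefSeq's GRCh38.p14. UNC5B stood at 21.7, 18.8 and 20.4 CPM in the Ctrl libraries and at 13.1, 13.5 and 16.7 CPM in the M0 EV libraries. All 3 M0 EV libraries were below all 3 Ctrl libraries, with replicate 3 the nearest to Ctrl. The mean was 20.3 ± 1.45 CPM in Ctrl and 14.5 ± 1.99 CPM in M0 EV (SD, n = 3 each), and the gene fell by 0.49 on the log2 scale (SE 0.0867, edgeR adjusted p = 0.019). As a fold this is 0.711, with an unadjusted 95% interval of 0.629 to 0.803. In bulk RNA, less UNC5B per cell and fewer cells that express it cannot be told apart. UNC5B lost its call without Ctrl replicate 1 (edgeR adjusted p = 0.141), without Ctrl replicate 3 (adjusted p = 0.113) and without M0 EV replicate 2 (adjusted p = 0.219), and in DESeq2 (adjusted p = 0.199). Its log2 fold change ranged from -0.61 to -0.42 over 18 alternative settings.

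The same gene was lower again after M1 vesicles. UNC5B stood at 6.6, 6.93 and 7.74 CPM in the M1 EV libraries, all below the lowest M0 EV library, and the direct difference of M1 EV from M0 EV was -1.02 on the log2 scale (SE 0.116, edgeR adjusted p = 2.41e-09). In the M2 EV libraries it stood at 15.3, 14.6 and 15.5 CPM, inside the range of the M0 EV libraries, and the difference of M2 EV from M0 EV was 0.06 (edgeR adjusted p = 1). Guidance genes were followed as a list of netrin, semaphorin, ephrin and Slit-Robo members. Of its 35 tested members only UNC5B was called. An unadjusted p below 0.05 was reached by 3 higher and 2 lower (2.83% higher and 2.29% lower over all genes). The median was -0.0058 against 0.0032 for all genes. SLIT2, a secreted ligand of the Robo receptors, stood at 77.8, 76.7 and 77.5 CPM in Ctrl and 82.3, 90.1 and 87 CPM in M0 EV. These groups do not overlap, yet the fold of 1.12 (1.04 to 1.19) was not called (edgeR adjusted p = 0.492).

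MT-RNR1 is the RNA of the small subunit of the mitochondrial ribosome (transcript NR_137294). It stood at 212, 196 and 206 CPM in the Ctrl libraries and at 228, 240.5 and 255 CPM in the M0 EV libraries. The groups do not overlap, and M0 EV replicate 1 was the nearest to Ctrl. Means were 204.8 ± 7.94 and 241.2 ± 13.2 CPM (SD, n = 3 each), and MT-RNR1 rose 1.18-fold, a log2 fold change of 0.23 (SE 0.0428, 95% interval 0.15 to 0.32, edgeR adjusted p = 0.019). It was no longer called when Ctrl replicate 2 (edgeR adjusted p = 0.113), Ctrl replicate 3 (0.124) or either of M0 EV replicates 2 (0.219) and 3 (0.387) was left out. The same held when the latter pair was counted as 1 sample (0.304) and, for UNC5B as well, when all transcripts of a gene were summed (0.639). The log2 fold change ranged from 0.19 to 0.27 over the 18 settings. MT-RNR1 stood at 229, 216 and 227 CPM in M1 EV and at 232.5, 205 and 226 CPM in M2 EV. Neither group differed from M0 EV by a call (log2 difference -0.11, edgeR adjusted p = 0.0592, for M1 EV and -0.13 for M2 EV). Against Ctrl the log2 difference was 0.13 in M1 EV (edgeR adjusted p = 0.0239) and 0.11 in M2 EV (0.674). All libraries were selected for poly(A) RNA, and how far this selection keeps mitochondrial ribosomal RNA was not measured. Reads shared with nuclear copies of the mitochondrial genes are not resolved by the counts. The part of either in the difference between M0 EV and Ctrl was not tested.

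MT-RNR2, the large-subunit partner, lay in the same direction and was not called in the main test. Its levels were 908, 912 and 976 CPM in Ctrl and 994, 1049 and 1052 CPM in M0 EV, with no overlap. The fold was 1.11 (1.06 to 1.16, edgeR adjusted p = 0.0989). MT-RNR2 was called in 4 of the 18 settings. By edgeR adjusted p these were no M0 EV replicate 1 (0.00179), no low-count filter (0.00036), the replicate block (0.0147) and each library's length trend removed (0.021). The mitochondrial messenger RNAs were not analysed here: of 15 mitochondrially encoded RNAs looked up, only MT-RNR1 and MT-RNR2 were among the measured genes. Of the nuclear genes for the same organelle, none of 37 tested genes for mitochondrial transcription and ribosomes was called, and their median was 0.013. All 37 had 95% intervals between a 20% fall and a 25% rise, called the narrow limit from here on. Over all tested genes 74.3% had such intervals, and the share rises with the level of the gene. Of 43 nuclear genes for oxidative phosphorylation none was called, the median was 0.017 and all 43 intervals lay inside the narrow limit.

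**Figure D1:**
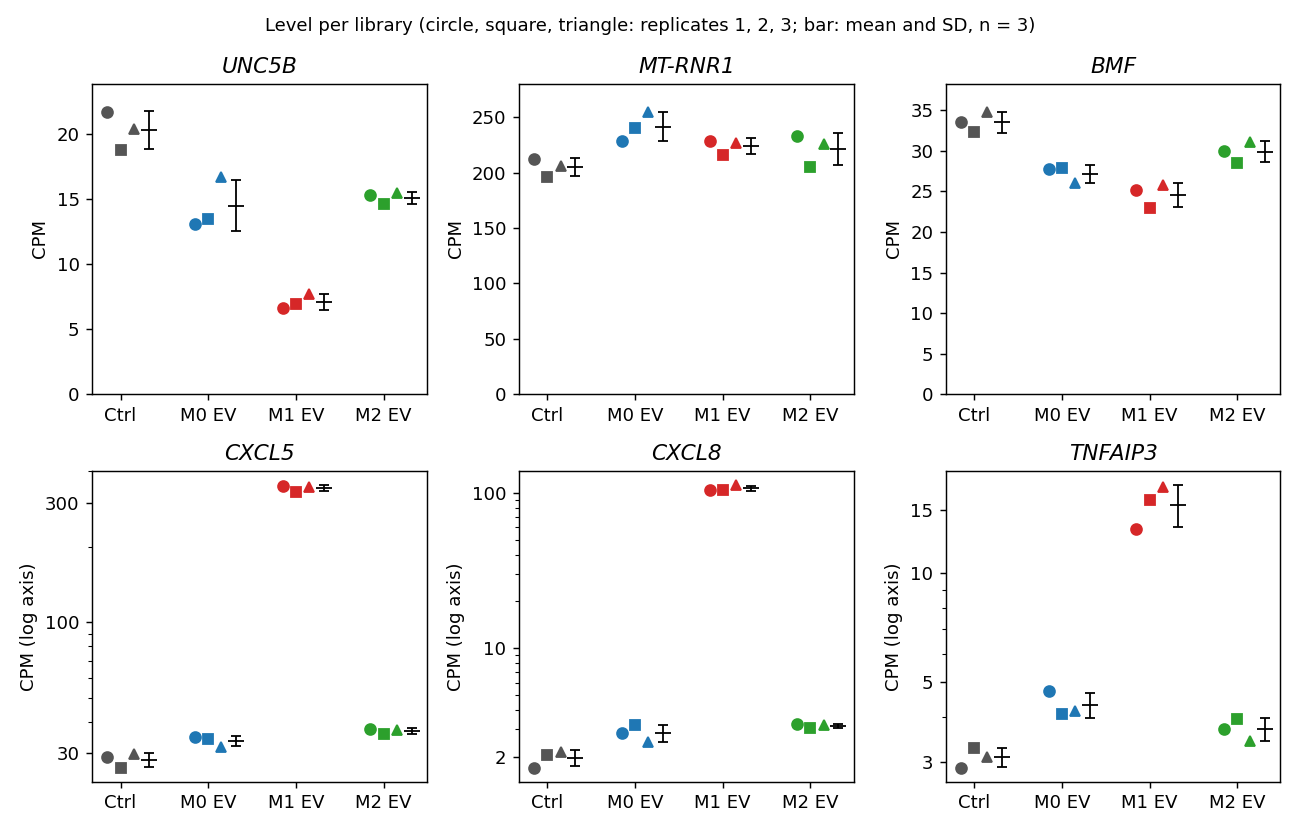
Level of 6 genes in each of the 12 libraries, in CPM, by group, with the mean and SD over 3 libraries; the upper axes start at 0 and the lower axes are logarithmic. UNC5B is lower in all M0 EV libraries (13.1 to 16.7 CPM) than in Ctrl (18.8 to 21.7 CPM) and lower again in M1 EV, while CXCL5, CXCL8 and TNFAIP3 in M0 EV lie close to Ctrl and far below M1 EV.

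Chemokines and NF-kB targets were examined next. Chemokines recruit leukocytes, and those of the CXCL group with an ELR motif, such as CXCL8 and CXCL5, attract neutrophils. None of 7 tested chemokines was called in M0 EV against Ctrl. CXCL5 was measured at 28.9, 26.3 and 29.8 CPM in Ctrl and at 34.8, 34.2 and 31.9 CPM in M0 EV. CXCL8 was measured at 1.7, 2.05 and 2.13 CPM in Ctrl and at 2.85, 3.18 and 2.48 CPM in M0 EV. CXCL1 was measured at 13.3, 11.4 and 13.6 CPM in Ctrl and at 14.6, 15.3 and 16 CPM in M0 EV. In each of these 3 genes every M0 EV library was above every Ctrl library. No other of the 7 tested chemokines had this, and over all genes the share was 5.01%. Of the 7, 5 had a positive log2 fold change, and the lowest was CXCL3 at -0.21.

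The folds were 1.18 (1.08 to 1.3, edgeR adjusted p = 0.284) for CXCL5, 1.44 (1.06 to 1.95, adjusted p = 0.932) for CXCL8 and 1.19 (1.04 to 1.38, adjusted p = 0.844) for CXCL1. The unadjusted intervals of all 3 genes end below 2-fold. The same genes reached 342.6 ± 9.79, 106.9 ± 4.48 and 206.9 ± 12.7 CPM (SD, n = 3) in M1 EV, which is 3.35, 5.24 and 3.76 above M0 EV on the log2 scale (edgeR adjusted p = 2.28e-38, 2e-36 and 2e-36). Over the 7 chemokines the median log2 fold change in M0 EV was 0.1, the furthest from 0 among the 31 lists with at least 5 tested genes. Over the alternative settings it ranged from 0.049 (limma-voom, where the NF-kB list lay further from 0) to 0.21 (without M0 EV replicate 1). In M1 EV against M0 EV 5 of the 7 were called higher (12.5% of all genes called higher) and the median was 3.35. Reads shared by the near-identical CXCL1, CXCL2 and CXCL3 are not resolved by the counts.

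Genes of the NF-kB response had small differences, none of them called. Of 28 tested members 2 reached an unadjusted p below 0.05 higher and 1 lower (2.83% higher and 2.29% lower over all genes). A positive log2 fold change was found in 19 (51.9% of all genes), and the median of the 28 was 0.059. TNFAIP3, which encodes the ubiquitin-editing inhibitor A20 of the pathway, stood at 2.9, 3.29 and 3.11 CPM in Ctrl and 4.72, 4.07 and 4.16 CPM in M0 EV. The groups do not overlap and the fold was 1.4 (1.09 to 1.8, edgeR adjusted p = 0.755). NFKBIA, the inhibitor IkB-alpha, stood at 26.1, 23.2 and 24.1 CPM in Ctrl and 29.1, 26.6 and 25.5 CPM in M0 EV, groups that overlap, with a fold of 1.11 (1.01 to 1.23, adjusted p = 0.967). ICAM1, the adhesion molecule that leukocytes bind, stood at 10.5, 10.7 and 10.7 CPM in Ctrl and 10.9, 12.1 and 11.9 CPM in M0 EV, with a log2 fold change of 0.12 (95% interval -0.08 to 0.33, adjusted p = 0.999). Its groups do not overlap, by a small margin. Intervals lay inside the narrow limit for 21 of the 28 genes, inside 1.5-fold for 26 and inside 2-fold for all 28. In M1 EV against M0 EV 24 of them were called higher (12.5% of all genes), TNFAIP3 by 1.84, NFKBIA by 1.19 and ICAM1 by 2.72 on the log2 scale (edgeR adjusted p = 1.27e-15, 2.17e-19 and 6.18e-30).

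Cytokines and growth factors were scattered around 0. None of 28 tested genes was called or reached an unadjusted p below 0.05, and the median was 0.016. The interleukin gene IL6 stood at 3, 4.11 and 3.82 CPM in Ctrl and 4.07, 3.77 and 3.01 CPM in M0 EV, a fold of 0.995 (0.773 to 1.28). IL1B stood at 4.6, 5.65 and 4.97 CPM in Ctrl and 4.72, 4.57 and 4.87 CPM in M0 EV, a fold of 0.933 (0.747 to 1.17). IL32 stood at 1.4, 1.34 and 1.6 CPM in Ctrl and 2.2, 1.39 and 1.68 CPM in M0 EV, a fold of 1.23 (0.838 to 1.8). The groups overlap for all 3 genes. M1 EV lay above M0 EV by 2.05, 3.18 and 4.19 on the log2 scale for them (edgeR adjusted p = 3.84e-16, 1.17e-26 and 1.17e-26).

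Interferon and antigen presentation genes showed no called difference. Of 35 tested type I interferon response genes none was called, 11 had a positive log2 fold change (51.9% of all genes) and the median was -0.027. IFIT2, an interferon-induced RNA-binding protein gene, had the smallest p: 13.3, 14.1 and 15.6 CPM in Ctrl and 12.8, 11.4 and 11.7 CPM in M0 EV, a fold of 0.835 (0.729 to 0.956, edgeR adjusted p = 0.755). Its relative IFIT1 stood at 11.6, 13 and 13.1 CPM in Ctrl and 13.6, 12.1 and 9.83 CPM in M0 EV, groups that overlap. Of 21 class I antigen presentation genes none was called and the median was -0.019. HLA-B, which presents peptides to T cells and may share reads with its HLA relatives, stood at 38.6, 42.2 and 43.8 CPM in Ctrl and 44.8, 35.5 and 43.3 CPM in M0 EV, a fold of 0.997 (0.901 to 1.1). In M1 EV against M0 EV 16 of these 21 genes were called higher (12.5% of all genes), HLA-B by 0.99 on the log2 scale (edgeR adjusted p = 8.03e-16).

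Genes of invasion and of the melanoma cell state showed no called difference. None of 30 tested genes of the undifferentiated and invasive state was called, all 30 lay inside the narrow limit, and the median was 0.0079. The receptor tyrosine kinase gene AXL, a marker of that state, stood at 1324, 1297 and 1310 CPM in Ctrl and 1308, 1334 and 1338 CPM in M0 EV, a fold of 1.01 (0.974 to 1.05). PLAU, the urokinase that activates plasminogen, stood at 371, 357 and 381 CPM in Ctrl and 393, 380.0 and 375 CPM in M0 EV, a fold of 1.03 (0.989 to 1.08). MMP14, a membrane-bound collagenase, stood at 463, 442 and 456 CPM in Ctrl and 469, 459 and 461 CPM in M0 EV, a fold of 1.02 (0.975 to 1.07). Ctrl and M0 EV overlap for all 3 genes.

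M1 EV lay above M0 EV by 0.85 for PLAU and 0.53 for MMP14 on the log2 scale, and below it by a log2 difference of -0.35 for AXL (edgeR adjusted p = 3.59e-23, 2.44e-16 and 3.73e-13). The collagenase gene MMP1 was low, at 1.9, 2.46 and 1.07 CPM in Ctrl and 1.71, 1.79 and 1.68 CPM in M0 EV, and its interval of 0.66 to 1.43 is correspondingly wide. Of 33 tested matrix proteases and inhibitors none was called, the median was -0.016 and 26 lay inside the narrow limit (74.3% of all genes). Of 36 tested collagens, laminins and adhesive matrix genes none was called, the median was -0.015 and 27 lay inside the narrow limit. Their log2 fold changes ran from -0.71 (COL5A3) to 0.24 (HSPG2). For 15 integrins none was called, the median was -0.021 and 11 lay inside the narrow limit. The melanocyte master regulator MITF was below the filter, at 0.799, 0.822 and 0.799 CPM in Ctrl and 0.732, 0.497 and 1.06 CPM in M0 EV. Of 12 tested melanocytic genes none was called, with a median of 0.017.

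Genes of the route that vesicles take into a cell were also near 0. None of 36 tested endocytosis genes was called, with a median of -0.0011 and 34 inside the narrow limit. None of 39 lysosome genes was called. An unadjusted p below 0.05 was reached by 4 lower and 0 higher (2.29% lower and 2.83% higher over all genes). A positive log2 fold change was found in 10 of the 39 (median -0.022, against 0.0032 and 51.9% positive over all genes). NPC2, which moves cholesterol out of the lysosome, was 1 of these 4, at 126, 127 and 129.6 CPM in Ctrl and 122, 121 and 116 CPM in M0 EV, a fold of 0.937 (0.885 to 0.993, edgeR adjusted p = 0.932). Of 30 exosome and multivesicular body genes none was called and the median was -0.0078. The tetraspanin gene CD63, an exosome marker, stood at 275, 265 and 269 CPM in Ctrl and 258, 250.0 and 245 CPM in M0 EV. Its groups do not overlap, and the fold was 0.931 (0.884 to 0.981, adjusted p = 0.755).

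Cell cycle genes lay mostly above 0 by a few percent, with none called. Over all tested genes 51.9% had a positive log2 fold change, and an unadjusted p below 0.05 was reached by 2.83% higher and 2.29% lower. Of 40 tested G2/M and mitosis genes 35 were positive, and 4 reached that p higher and 0 lower. Their median was 0.037 and all 40 intervals lay inside the narrow limit. Of 39 G1/S and DNA replication genes 29 were positive, 1 reached that p higher and 0 lower, and the median was 0.025. MKI67, the Ki-67 proliferation antigen, stood at 479, 463 and 409 CPM in Ctrl and 442, 528 and 545 CPM in M0 EV. Replicates 2 and 3 of M0 EV lay above Ctrl and replicate 1 inside its range, and the fold was 1.12 (1.04 to 1.2, edgeR adjusted p = 0.542). MKI67 was called without M0 EV replicate 1 (edgeR log2 fold change 0.25, adjusted p = 8.82e-05) and with no low-count filter (0.16, adjusted p = 0.00036). Of 75 cytosolic ribosomal protein genes 62 were positive, with a median of 0.019 and all 75 intervals inside the narrow limit. That median was -0.0098 without M0 EV replicate 1.

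Stress, metabolic and signalling lists showed no called gene either. The medians were 0.033 for 36 hypoxia and glycolysis genes, -0.029 for 26 NRF2 targets, 0.01 for 32 genes of the unfolded protein and integrated stress response, 0.04 for 17 heat shock proteins and -0.011 for 29 cholesterol synthesis genes. They were 0.034 for 24 TGF-beta targets, 0.024 for 23 YAP and TEAD targets, 0.0092 for 32 genes of ERK output and AP-1, -0.0032 for 26 p53 targets and 0.035 for 34 apoptosis regulators. BNIP3, a hypoxia-induced mitophagy receptor gene, stood at 89.4, 90.7 and 88.1 CPM in Ctrl and 101, 98.6 and 97.2 CPM in M0 EV, a fold of 1.11 (1.04 to 1.17, edgeR adjusted p = 0.381). NQO1, a quinone reductase and NRF2 target, stood at 451, 459 and 463 CPM in Ctrl and 434, 403 and 422 CPM in M0 EV, a fold of 0.917 (0.874 to 0.962, adjusted p = 0.323). NQO1 was called without M0 EV replicate 1 (edgeR adjusted p = 0.0187) and with no low-count filter. BNIP3 and NQO1 had groups that do not overlap. VEGFA, the angiogenic growth factor, stood at 209, 205 and 211 CPM in Ctrl and 208, 200.0 and 204 CPM in M0 EV, and HMOX1, haem oxygenase 1, at 9.39, 8.52 and 9.86 against 8.46, 9.34 and 9.39 CPM.

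**Figure D2:**
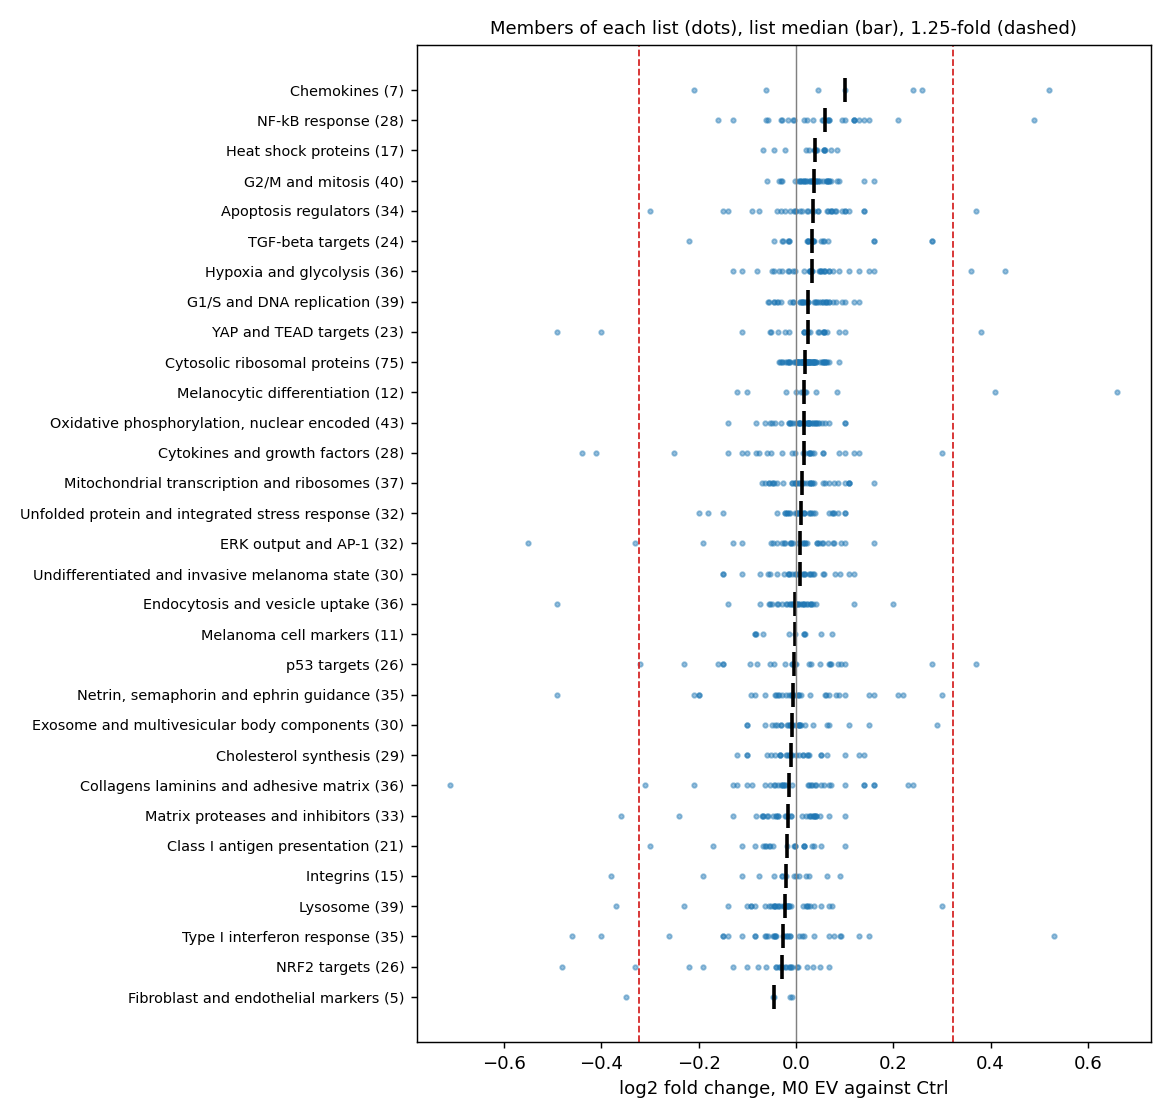
Log2 fold change of M0 EV against Ctrl for the tested members of 31 gene lists (dots, with the number tested beside each name), the list's median (bar) and the narrow limit, a 20% fall to a 25% rise (dashed). The medians lie between -0.044 and 0.1.

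Among genes whose groups do not overlap, those next to the 2 called genes in p fell outside the threshold. BMF, a pro-apoptotic BH3-only gene, stood at 33.5, 32.3 and 34.8 CPM in Ctrl and 27.8, 27.9 and 26 CPM in M0 EV, a fold of 0.811 (0.741 to 0.887, edgeR adjusted p = 0.0677). NAV2, a neuron navigator gene linked to retinoic acid, stood at 91.4, 90.1 and 81.5 CPM in Ctrl and 92.7, 110.5 and 117 CPM in M0 EV, a fold of 1.22 (1.12 to 1.32, adjusted p = 0.0529). The BMF groups lie well apart, while M0 EV replicate 1 exceeds the highest Ctrl library of NAV2 only narrowly. GPT2, the mitochondrial alanine aminotransferase, stood at 52.7, 54.5 and 48.8 CPM in Ctrl and 61.4, 64.4 and 58.8 CPM in M0 EV, a fold of 1.18 (1.1 to 1.28, adjusted p = 0.0989). BMF, NAV2 and GPT2 were each called in 4 of 18 alternative settings: with no low-count filter, with the replicate block, without M0 EV replicate 1 (edgeR adjusted p = 0.0107, 4.11e-07 and 0.0374) and with each library's length trend removed.

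The receptor gene NOTCH1 stood at 35.4, 31.5 and 34.4 CPM in Ctrl and 35.6, 42.1 and 44.4 CPM in M0 EV, a fold of 1.2 (1.09 to 1.32, edgeR adjusted p = 0.284). NOTCH1 was called without M0 EV replicate 1 (edgeR adjusted p = 0.00107) and with no low-count filter (0.0252). TFRC, the transferrin receptor that brings iron into the cell, stood at 550.4, 563 and 541 CPM in Ctrl and 600.5, 612 and 582 CPM in M0 EV, a fold of 1.09 (1.04 to 1.13, adjusted p = 0.284). TNFRSF21, the death receptor DR6, stood at 283, 276 and 284 CPM in Ctrl and 247, 256 and 262 CPM in M0 EV, a fold of 0.906 (0.864 to 0.95, adjusted p = 0.163). For TFRC, TNFRSF21 and NQO1 the difference of M1 EV from M0 EV was called, at 0.51, -0.42 and -0.38 on the log2 scale (edgeR adjusted p = 4.25e-16, 3.2e-12 and 4.82e-11). The rule also took ZSWIM3 (fold 1.34, 1.16 to 1.55), PKNOX2 (0.815, 0.738 to 0.9), LAPTM4A (0.901, 0.855 to 0.949), KLHL29 (0.758, 0.65 to 0.883) and PAQR7 (0.851, 0.777 to 0.933), none of them called (edgeR adjusted p = 0.163 to 0.355). Over the alternatives, LAPTM4A was called without M0 EV replicate 1 (0.0273), and PKNOX2 (0.0331) and TNFRSF21 (0.0252) with no low-count filter.

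The size that an effect of M0 vesicles could still have depends on the level of the gene. An unadjusted 95% interval of the fold change lay wholly inside the narrow limit of a 20% fall to a 25% rise for 9755 of 13129 genes (74.3%), inside 1.5-fold for 11664 (88.8%) and inside 2-fold for 12818 (97.6%). Of 2502 genes at 100 CPM and over, 2485 (99.3%) lay inside the narrow limit and all 2502 inside 1.5-fold, and the median half-width of the interval was 1.06-fold. Of 7162 genes at 10 to 100 CPM, 6828 (95.3%) lay inside the narrow limit and all 7162 inside 2-fold. Between 1 and 10 CPM the shares dropped to 442 of 3140 genes (14.1%) inside the narrow limit and 2996 (95.4%) inside 2-fold. Of 325 genes under 1 CPM none lay inside 1.5-fold and 158 (48.6%) lay inside 2-fold. Under 1 CPM the interval thus often reached beyond 2-fold, and between 1 and 10 CPM it mostly reached beyond the narrow limit.

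The observed differences follow the same funnel. The log2 fold change exceeded 0.5 in either direction in 131 genes and 1 in 7, all of them under 10 CPM. The extremes were ZNF154, a zinc finger gene at 0.5, 1.03 and 0.622 CPM in Ctrl and 1.46, 1.29 and 1.95 CPM in M0 EV (log2 fold change 1.14, edgeR adjusted p = 0.492), and CSPG5, a proteoglycan gene at 0.6, 1.13 and 1.07 against 0.488, 0.497 and 0.354 CPM (-1.05, adjusted p = 0.849). Both were chosen after their values were seen, and neither was called. Among genes at 10 to 100 CPM the extremes were UNC5B at -0.49 and ZSWIM3 at 0.43, and among genes at 100 CPM and over LAPTM4A at -0.15 and SYNE2 at 0.38. The fold needed to reach the p of 7.62e-06 that 2 calls require was 1.15 at the median of genes at 100 CPM and over, 1.87 at 1 to 10 CPM and 3.64 under 1 CPM.

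**Figure D3:**
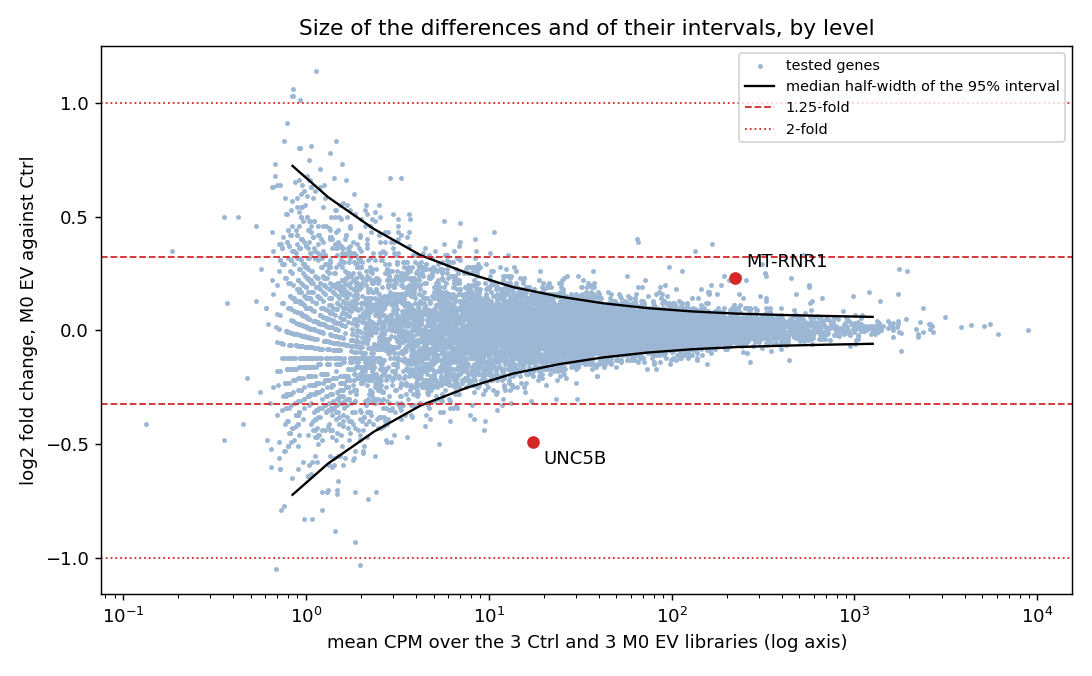
Log2 fold change of M0 EV against Ctrl for 13129 tested genes, by mean CPM over the 6 libraries (log axis), with the median half-width of the unadjusted 95% interval at each level (black), the narrow limit (dashed) and 2-fold (dotted). The points narrow as the level rises, and UNC5B and MT-RNR1, the 2 called genes, lie outside the black lines.

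One measured pattern separates M0 EV replicate 1 from replicates 2 and 3. Among 772 genes of at least 5 CPM with transcripts of 8 kb and over, 108 (14%) had an unadjusted p below 0.05 higher in M0 EV and 7 (0.907%) lower, and their median log2 fold change was 0.038. The median deviation of these genes from the Ctrl mean was -0.04 in M0 EV replicate 1 and 0.07 and 0.08 in replicates 2 and 3, while the Ctrl libraries lay at 0.01, 0.03 and -0.04. Replicate 1 was also the lowest of its group in the other vesicle groups. Replicates 1, 2 and 3 lay at -0.069, 0.0074 and 0.0055 in M1 EV and at -0.011, 0.031 and 0.026 in M2 EV. Over 10742 genes the correlation of log2 fold change with log2 length was small (Pearson 0.062, Spearman 0.052; genes share libraries and are not replicates). Without M0 EV replicate 1, 85 genes were called by edgeR (0.647%), 79 higher and 6 lower. That fit keeps M0 EV replicates 2 and 3, which differed by little more than counting error (chi-square 1.03 per degree of freedom). Its p-values may therefore be too small. With all libraries kept and that pair averaged into 1 sample, 1 gene was called. Of the 79, 71 had transcripts of 8 kb and over, against 6.65% of tested genes, and of the 6 lower none did. M0 EV replicate 1 lay inside the range of the Ctrl libraries in 47 of the 85 genes. The share of all tested genes with this was not computed. Outside that range, replicate 1 did not always lie on the side of the call. In LRP1, called higher, it was below every Ctrl library (486 against 510 to 540 CPM). In UNC5B, called lower, it was also below every Ctrl library (13.1 against 18.8 to 21.7 CPM).

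Examples chosen after their values were seen are the motor protein gene DYNC1H1, the cytoplasmic dynein heavy chain, and UBR4, a large ubiquitin ligase gene. DYNC1H1 stood at 1611, 1652 and 1524 CPM in Ctrl and at 1575, 2055 and 2155 CPM in M0 EV replicates 1, 2 and 3, a log2 fold change of 0.27 (edgeR adjusted p = 0.0529) with all libraries and 0.4 (adjusted p = 1.26e-12) without M0 EV replicate 1. UBR4 stood at 476, 491 and 427 CPM in Ctrl and at 458, 628 and 669.6 CPM in M0 EV, and its log2 fold change went from 0.33 (adjusted p = 0.0653) to 0.48 (adjusted p = 2.93e-12). Both genes, and SYNE2, were also called with all 6 libraries kept under 3 alternatives: the replicate block, no low-count filter and each library's length trend removed. The nuclear envelope gene SYNE2 (146, 158 and 129 against 136, 205 and 223 CPM) and the long non-coding RNA gene MALAT1 (60.4, 55.9 and 53.4 against 57.8, 71.6 and 93.2 CPM) were higher in the same 2 M0 EV libraries. In each of these 4 genes replicates 2 and 3 were above Ctrl and replicate 1 lay inside the Ctrl range. The part of transcript length, of RNA quality or of the treatment in these differences was not tested.

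**Figure D4:**
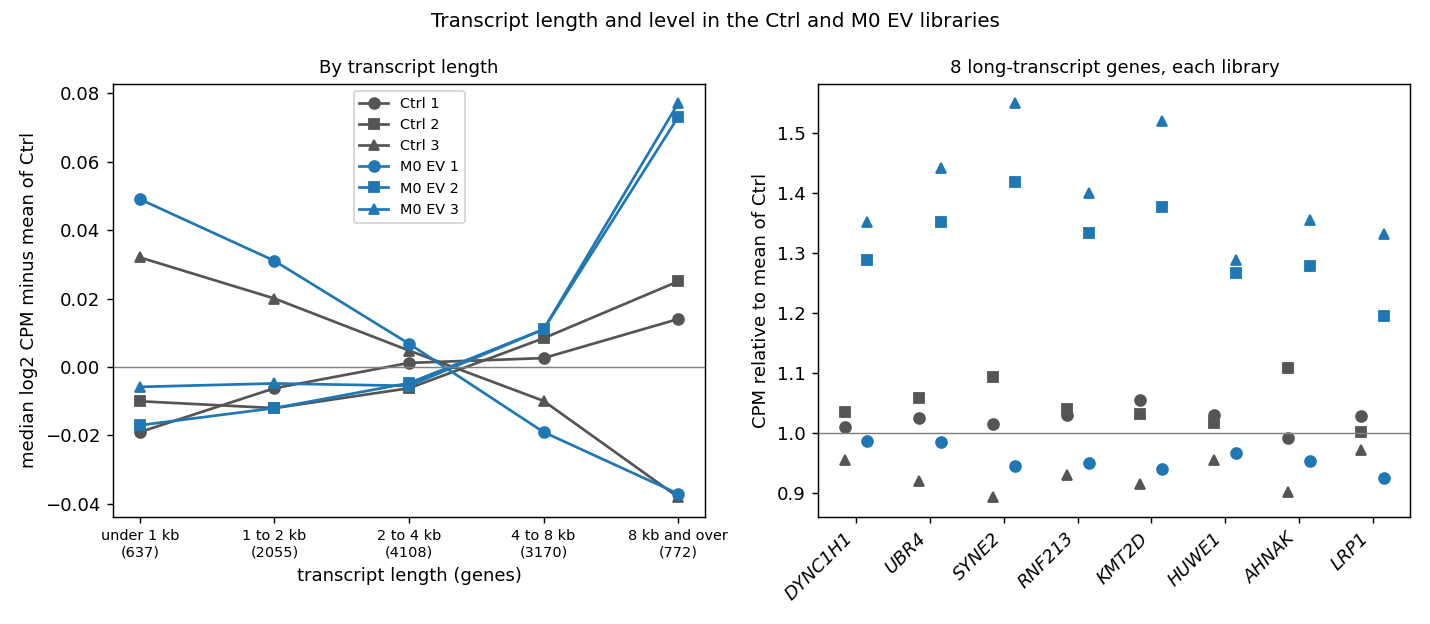
Left, median over genes of the deviation of log2 CPM from the Ctrl mean in each of the 6 libraries, by transcript length class (number of genes in brackets). Right, CPM relative to the Ctrl mean for 8 genes with long transcripts, with the shape of each point giving the replicate; M0 EV replicates 2 and 3 lie above the Ctrl libraries and M0 EV replicate 1 does not.

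Set against the other vesicles, M0 EV lay close to M2 EV and far from M1 EV. No gene was called in M2 EV against M0 EV by edgeR (0% of 13129), DESeq2 or limma-voom, and an unadjusted p below 0.05 was reached by 446 genes in edgeR (3.4%), 107 in DESeq2 and 465 in limma-voom. The edgeR count was 37 without M0 EV replicate 1, all lower in M2 EV and 31 of them with transcripts of 8 kb and over. In M2 EV against M0 EV 10036 genes (76.4%) had intervals inside the narrow limit, 11851 (90.3%) inside 1.5-fold and 12909 (98.3%) inside 2-fold. In M1 EV against M0 EV, edgeR called 3312 genes (25.2%), 1635 higher (12.5%) and 1677 lower (12.8%), of which 126 (0.96%) differed by at least 2-fold. ESM1, a secreted endothelial-cell proteoglycan gene, is 1 of those: it stood at 23.1, 23.3 and 25 CPM in Ctrl, 29.2, 29.2 and 25.3 CPM in M0 EV and 91.8, 83 and 92.3 CPM in M1 EV, and the difference of M1 EV from M0 EV was 1.67 (SE 0.0601, edgeR adjusted p = 2.62e-24). Its fold in M0 EV against Ctrl was 1.17 (1.05 to 1.3, adjusted p = 0.667).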

How the data were processed

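RNA was sequenced from MV3 cells as directional poly(A) libraries, per the labels' protocols. The submitters' processing notes name STAR 2.6.1b, HOMER 4.10 and hg38 without roles. Strand use in counting: not given in the sources used here. Expected counts of 70507 RefSeq transcripts were deposited by the authors without normalization, and of the values above 0 51.3% held a fraction. Transcripts were named with RefSeq GRCh38.p14 (69830) and GENCODE (327). The 350 without a name, 0.0608% to 0.0643% of counts, were left out. For each of 28087 genes the transcript with the highest sum over the 12 libraries was kept and rounded to whole counts. The column taken as M0 EV replicate 1 spells the cell line without its digit; no other M0 EV sample lacked a column.

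In R 4.3.3, edgeR 4.0.16 kept 13129 genes by its default filter (at least 99.89% of gene totals), scaled them by TMM and fitted 1 term per group over all 12 libraries (8 residual degrees of freedom; the common biological variation was 2.59%). Two-sided quasi-likelihood tests were adjusted by Benjamini-Hochberg within each comparison, with a call at adjusted p below 0.05. Intervals are 95%, unadjusted, from the model SE. Transcript lengths came from GENCODE.

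Named genes are the called genes, the 8 smallest p in each direction (at least 5 CPM, groups not overlapping, no unnamed, host, antisense or read-through loci), 27 set genes and up to 3 genes of smallest p per list. A gene that the rule takes is not reported here. Members and lists were chosen with earlier results of these data known. Alternatives were DESeq2 1.42.0, limma-voom (limma 3.58.1), RLE and upper-quartile scaling, 2 other filters, other choices of transcript, only the libraries compared, the replicate number as a block, M0 EV replicates 2 and 3 averaged and each library left out. Removal of each library's length trend was added after seeing the data.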

Additional observations from a re-analysis of the deposited data

How the results depend on the processing

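The number of genes called in M0 EV against Ctrl was 2 and stayed 2 with limma-voom, RLE and upper-quartile scaling, a minimum of 1 CPM, the 6 libraries alone and transcripts chosen over those 6. It was 1 with DESeq2, 1 with M0 EV replicates 2 and 3 averaged, 0 with transcripts summed, 51 with no low-count filter and 12 with the length trend removed, and 0 to 85 with 1 library left out (85 without M0 EV replicate 1). Transcripts of 8 kb and over made up 37 of the 51 and 6 of the 12. In M2 EV against M0 EV, 0 genes became 12 with no filter and 0 to 37 with 1 library left out. In M1 EV against M0 EV, 3312 genes stayed within 1.5 times under every setting run. The list median furthest from 0 (chemokines, 0.1) was 0.062 to 0.21 with 1 library left out, the highest without M0 EV replicate 1. The furthest list was NF-kB without M0 EV replicate 2 (0.088), in limma-voom (0.061, with chemokines at 0.049) and with M0 EV replicates 2 and 3 averaged (0.061). The causes were not tested. Replicate numbers did not pair the Ctrl with the M0 EV libraries. Deviations of same-numbered Ctrl and M0 EV libraries correlated at -0.13, 0.078 and -0.044 over 9662 genes. The highest of the 9 pairs was 0.17 (Ctrl 3 with M0 EV 1). Pairing among the M0 EV, M1 EV and M2 EV libraries was not tested in this way. With the replicate block 21 genes were called in M0 EV against Ctrl, 15 of them with transcripts of 8 kb and over, 1 in M2 EV against M0 EV and 3415 in M1 EV against M0 EV. Wide intervals limit statements on genes under 10 CPM.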
